A study of Homo sapiens with 21 samples.

Results

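Glycolysis and hypoxia genes are described here across 19 RNA sequencing libraries of THP1 cells, a human monocytic line from an acute myeloid leukemia. The 36 members, of 20423 genes in the deposited table of normalized counts, were chosen by gene symbol, with earlier results of these data known. They comprise 22 glycolytic enzymes and transporters, 3 regulators of glycolytic flux, and 11 genes of the hypoxia-inducible factor (HIF) pathway and its other targets. All 36 were found in the table, and 34 had a mean of at least 10 normalized counts and entered the tests. A normalized count is the read count of a gene divided by a size factor for its library, so it is comparable between libraries but not, without division by gene length, between genes.

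The study asked how the cofactor IRF2BP2 and the basic leucine zipper factors ATF7 and JDP2 act on gene expression in these cells. IRF2BP2 was knocked down with either of 2 short hairpin RNAs carried by a pLKO.1 vector, shRNA 1 in 3 libraries and shRNA 2 in 3 libraries, and these were set against 2 libraries of shRNA control. ATF7 and JDP2 were each knocked out with a Lenti-CRISPRv2 construct in 2 clones, clone 1 and clone 2, which the labels describe as single-cell clones from diluted transfected cells. Each knockout clone had 2 libraries, and the knockout control also had 2, and 1 library came from wild type THP1 cells with no construct named. All cells were grown in RPMI with serum, and the labels name no oxygen level and no treatment. Each knockout thus rests on 2 clones, and differences between clones of the same knockout are given beside its effect. The labels describe 21 libraries, and shRNA control replicate 2 and wild type replicate 1, which they mark as low quality, were not analysed here. Whether replicates were separate cultures is not in the labels, so each p-value reflects the spread of these libraries, and that spread may be technical.

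In glycolysis, glucose enters through facilitative transporters, is trapped by hexokinases and is split and oxidised to pyruvate, which is either reduced to lactate and exported or passed to mitochondria. HIF, a dimer of an oxygen-labile alpha subunit such as HIF1A and a stable partner, binds a short core sequence near its targets and raises many of these enzymes together with genes of angiogenesis, mitophagy and oxygen sensing. Prolyl hydroxylases of the EGLN family mark the alpha subunit for degradation when oxygen is present, and some of them are HIF targets themselves. In monocytes and macrophages glycolysis is known to increase with inflammatory activation, and HIF1A also responds to inflammatory signals.

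Libraries held 28.7 to 60.2 M reads in genes. In 3 of them a large share of genes was over 2-fold away from the gene's median: 45 percent in IRF2BP2 shRNA 1 replicate 3, 34.3 percent in JDP2 KO clone 1 replicate 2 and 21.1 percent in IRF2BP2 shRNA 2 replicate 3, against 0.863 to 6.25 percent in the other 16. Results that rest on these libraries are given with and without them. The IRF2BP2 message itself stood at 9456, 11109.7 and 9802 normalized counts with shRNA 1 and at 12587, 16649 and 25650.5 with shRNA 2, against 16973 and 18382 in shRNA control, a log2 change of -0.41 ± 0.42 (SE, limma adjusted p = 0.715). The library labelled IRF2BP2 shRNA 2 replicate 3 thus goes against its label, replicate 2 of the same hairpin was close to the lower control, and every knockdown direction below includes both. ATF7 and JDP2 messages were not lower in their knockouts (log2 changes of 0.38 and 0.14), which leaves the labels unchecked, since a frameshift can abolish a protein while its mRNA persists. All 15 monocytic leukemia cell markers had a mean of at least 10 normalized counts, but their levels differed widely. CD14 was close to background (median 11.6, lowest 2.16) and MPO was low (median 27.9), whereas CEBPA (30625) and LYZ (30399) had the highest medians. The summed level was 95009 to 248363 normalized counts in knockdown libraries, against 71549 to 80315 in shRNA control. The knockdown range overlapped that of ATF7 knockout (76365 to 124188) and JDP2 knockout (92824 to 190506). Wild type (133851) lay within it, and the knockout control was at 67672 to 94909. The T and B cell genes CD3D, CD3E and MS4A1 had medians of 0. The summed level of 9 stromal and endothelial markers was 2552 to 9619 in knockdown libraries, against 1074 to 1467 in shRNA control. PECAM1, which monocytes also express, made up most of it, at 763 to 9227 normalized counts over all libraries. Of the other 8, the highest values in any library were 251 for COL1A1, 212 for VWF, 189 for PDGFRB, 106 for COL1A2, 72.9 for COL3A1, 38.2 for CDH5, 11.6 for DCN and 7.19 for LUM, which had a median of 0.

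Per kilobase of exon, the pathway ran over 3 orders of magnitude. GAPDH, the dehydrogenase of the lower part of the pathway (ENSG00000111640.14, chr12:6533927-6538374, plus strand, GRCh38), was the highest member, with a median of 21544 normalized counts per kb over 19 libraries (range 8165 to 44524). Pyruvate kinase PKM (15479.7) and enolase ENO1 (15333) followed with medians that differed by less than their ranges, and then TPI1 (6396) and PGAM1 (5463). This order depends on exon lengths that merge all annotated exons of a gene, 2.98 kb for GAPDH and 8.57 kb for PKM. Before division by length PKM had the higher mean, 138111 normalized counts, against 70434 for GAPDH. The lowest enzyme was the muscle-type phosphofructokinase PFKM (ENSG00000152556.16, chr12:48105139-48146404, plus strand), at a median of 15.2 per kb. Among the regulators PDK1, the kinase that switches off pyruvate dehydrogenase (ENSG00000152256.13, chr2:172555373-172608669, plus strand), was highest at 1295 per kb and PFKFB4, a bifunctional enzyme that sets the activator of phosphofructokinase (ENSG00000114268.11, chr3:48517684-48562015, minus strand), lowest at 140.3. Of the hypoxia genes NDRG1, a stress-induced gene of the N-myc downstream regulated family, was highest at 1011 per kb (range 499.9 to 3409.5). The prolyl hydroxylase EGLN3 and the carbonic anhydrase CA9 were close to background. EGLN3 had 0 reads in 9 of 19 libraries and at most 10, and CA9 had 0 reads in 6 and at most 39. Both fell below the minimum for testing, and no fold is given for them. CA9 passed that minimum only in some counts without a test that include ATF7 KO clone 2 replicate 1, its highest library.

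Isoenzyme shares, on the per-kb scale, are given for 5 steps, which were picked after their values were seen and were not tested. HK3, the hexokinase typical of myeloid cells, made up 39.4 to 74.5 percent of the summed HK1, HK2 and HK3 level in knockdown libraries, against 18.5 to 19.4 percent in shRNA control. ALDOC made up 2.92 to 23.7 percent of the ALDOA and ALDOC sum in ATF7 knockout and 3.25 to 13.4 percent in JDP2 knockout, against 46.6 to 60.1 percent in the knockout control. Every knockout library lay below every other library in that share, the lowest of which was 30.8 percent in a knockdown library. LDHB, the lactate dehydrogenase subunit linked to lactate use, made up 7.79 to 15.9 percent of the LDHA and LDHB sum in knockdown libraries, against 21.3 to 25.0 percent in shRNA control and 16.1 percent in wild type. PFKL made up 40.2 to 48.1 percent of the summed phosphofructokinase level in knockdown libraries, against 48.5 to 53.0 percent in shRNA control, and 52.9 to 62.4 percent in ATF7 knockout and 51.8 to 72.8 percent in JDP2 knockout, against 48.2 to 49.4 percent in the knockout control. Of the enolases ENO1 held 99.0 to 99.8 percent of the sum throughout. The levels of ALDOA and LDHB are uncertain in absolute terms, because 42.3 and 33.4 percent of their exon bases are shared with another gene on the same strand, and GAPDH and BNIP3 have 62 and 39 annotated pseudogenes named after them.

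**Figure D1:**
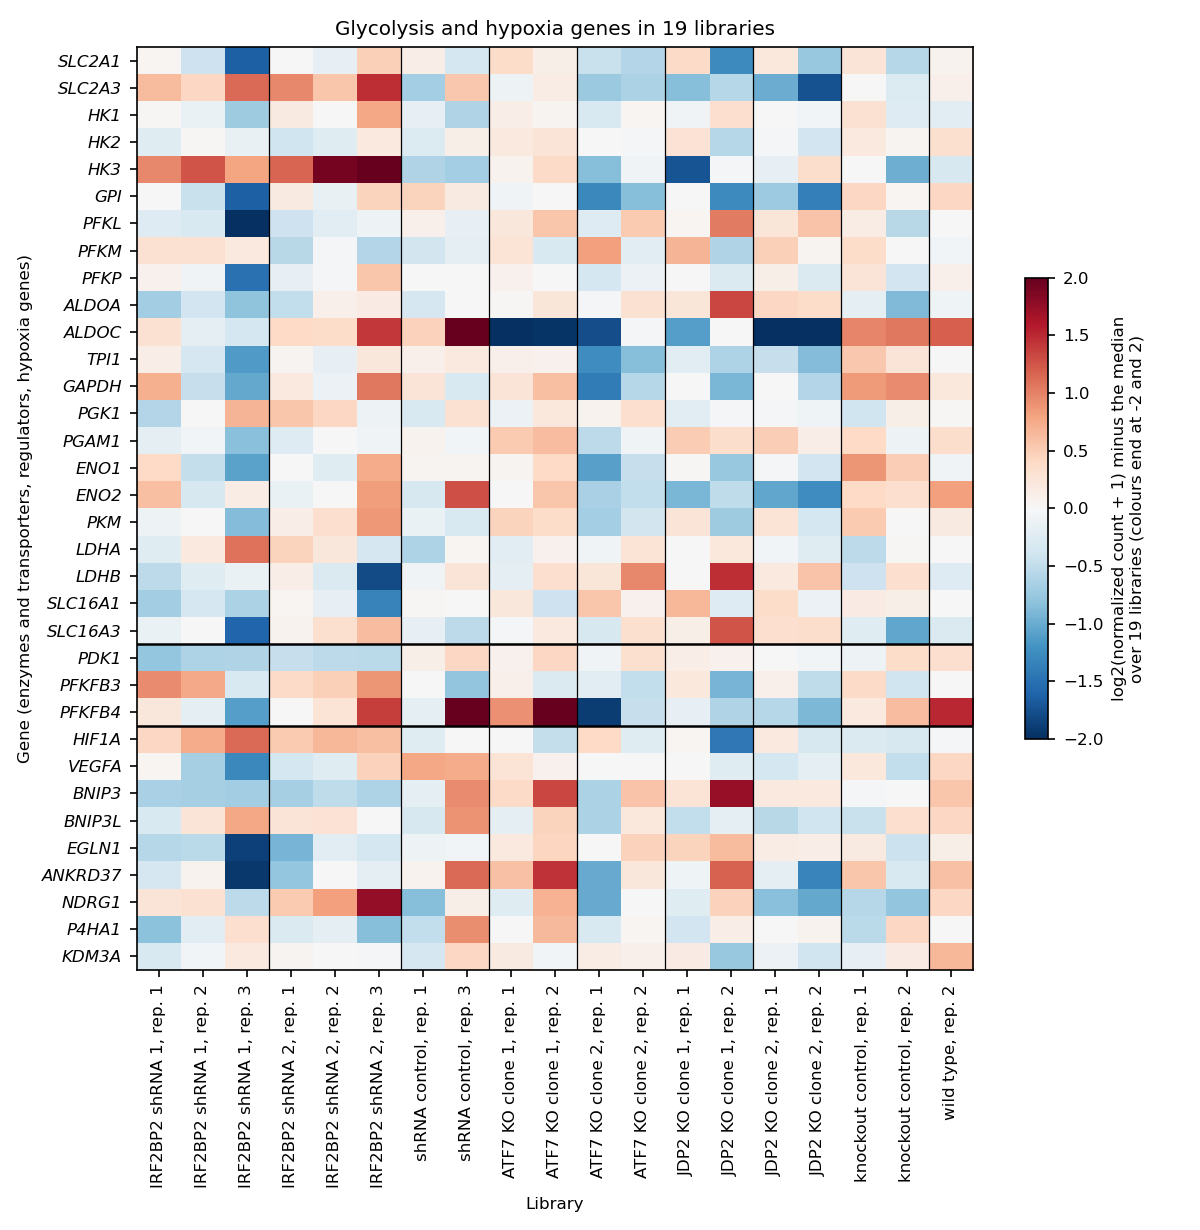
Level of the 34 tested members (rows, by role) in 19 libraries (columns, by group), as log2(normalized count + 1) minus the gene's median over all libraries. IRF2BP2 shRNA 1 replicate 3 has 8 of 22 enzymes and transporters more than 2-fold below their medians and ATF7 KO clone 2 replicate 1 has 5, PDK1 is low in all 6 knockdown libraries, and ALDOC is at or below its median in the 8 knockout libraries, with ATF7 KO clone 1 and JDP2 KO clone 2 lowest.

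Promoters are shown for 6 members on which the comparisons below turn, so that the HIF core can be seen beside the levels. These members were picked after their values were seen. Sequences are RefSeq promoters of GRCh38.p14, in lower case 5′ to 3′, and capitals mark the HIF core on either strand. Each runs from 250 bases before to 50 bases after an annotated start site, which can lie inside the gene span, as for PFKFB4. Where a gene had several such windows, the one holding most annotated transcript starts was used. The core has 2 forms, which differ in the first base and are named with their shares after the sequences. The windows are chr2:172555840-172556139 on the plus strand for PDK1, chr3:48556754-48557053 on the minus strand for PFKFB4, chr10:131981874-131982173 on the minus strand for BNIP3, chr4:185396591-185396890 on the plus strand for ANKRD37, chr17:28576846-28577145 on the minus strand for ALDOC and chr5:176899297-176899596 on the minus strand for HK3.
PDK1: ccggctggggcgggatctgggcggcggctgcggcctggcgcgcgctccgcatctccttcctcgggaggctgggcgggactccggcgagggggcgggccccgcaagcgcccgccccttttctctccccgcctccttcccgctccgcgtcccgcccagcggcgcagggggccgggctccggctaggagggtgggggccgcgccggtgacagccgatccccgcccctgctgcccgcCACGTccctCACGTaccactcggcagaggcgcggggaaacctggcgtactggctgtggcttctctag
PFKFB4: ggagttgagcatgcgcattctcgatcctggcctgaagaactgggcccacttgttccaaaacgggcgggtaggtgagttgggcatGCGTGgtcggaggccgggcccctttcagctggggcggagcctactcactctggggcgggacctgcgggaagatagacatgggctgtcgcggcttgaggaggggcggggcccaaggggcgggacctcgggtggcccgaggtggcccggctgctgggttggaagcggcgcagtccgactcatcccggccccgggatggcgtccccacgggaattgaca
BNIP3: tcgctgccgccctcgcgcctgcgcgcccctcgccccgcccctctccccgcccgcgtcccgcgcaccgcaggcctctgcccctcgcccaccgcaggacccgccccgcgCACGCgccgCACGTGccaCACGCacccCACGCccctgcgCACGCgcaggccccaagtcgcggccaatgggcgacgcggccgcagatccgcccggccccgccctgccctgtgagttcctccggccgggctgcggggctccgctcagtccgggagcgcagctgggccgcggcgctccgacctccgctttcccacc
ANKRD37: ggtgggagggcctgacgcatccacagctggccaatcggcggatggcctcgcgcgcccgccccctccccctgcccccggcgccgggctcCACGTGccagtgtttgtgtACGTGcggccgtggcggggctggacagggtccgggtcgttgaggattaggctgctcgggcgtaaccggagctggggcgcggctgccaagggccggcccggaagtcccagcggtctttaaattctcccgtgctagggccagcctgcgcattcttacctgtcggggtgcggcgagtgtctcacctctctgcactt
ALDOC: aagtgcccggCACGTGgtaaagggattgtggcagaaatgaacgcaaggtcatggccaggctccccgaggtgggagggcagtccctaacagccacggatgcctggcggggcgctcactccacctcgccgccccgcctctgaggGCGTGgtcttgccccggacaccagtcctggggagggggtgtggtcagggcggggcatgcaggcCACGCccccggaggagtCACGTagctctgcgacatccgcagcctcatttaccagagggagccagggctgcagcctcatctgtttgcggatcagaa
HK3: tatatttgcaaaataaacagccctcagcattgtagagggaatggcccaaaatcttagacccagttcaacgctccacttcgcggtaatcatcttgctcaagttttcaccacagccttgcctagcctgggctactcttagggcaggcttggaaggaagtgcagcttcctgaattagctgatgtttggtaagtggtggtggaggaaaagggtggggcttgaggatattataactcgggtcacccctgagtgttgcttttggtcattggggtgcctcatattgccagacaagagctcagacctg

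PDK1 had 2 cores, at -17 and -8 relative to the start site of its window, and BNIP3 had 6 cores between -143 and -104. ALDOC had 5, ANKRD37 had 3 and PFKFB4 had 1. HK3 had 0 cores in this window. The table held promoters for 31 of the 36 members (SLC2A3, SLC16A1, VEGFA, BNIP3L and NDRG1 were not among them), and either core was found in at least 1 window of 28 of the 31 (90.3 percent), against 52.4 percent of all 27305 genes. ACGTG was found in 61.3 percent of members, against 24.9 percent of all genes, GCGTG in 58.1 against 40.6 percent, and CACGTG in 25.8 against 8.77 percent. CACGTG reads the same on both strands and holds the first form on each strand, so it gives 2 overlapping cores. Many members are in the list because they are known HIF targets, so these shares describe the list and are not a test. A match in these letters is not shown to be bound.

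IRF2BP2 knockdown was compared with shRNA control to ask which messages change with hairpins against IRF2BP2. No member passed the test. HK3 was higher and PDK1 lower in all 6 knockdown libraries than in either shRNA control library and in each of the other 11 libraries. HIF1A, the oxygen-labile HIF subunit, was also above all 13, although ATF7 KO clone 2 replicate 1 (3098) came close to the lowest knockdown library (3127). The hypoxia target BNIP3, a mitochondrial receptor of mitophagy, was lower in all 6 than in both shRNA control libraries. In limma on log2(normalized count + 1), 0 of 34 members were called at an adjusted p under 0.05, against 1.79 percent of all 12738 genes (228 genes). At an unadjusted p under 0.05 there were 7 members, against 14 percent of all genes (1781 genes). EdgeR called 0 members among 124 genes, and DESeq2 called 3 (HK3 higher, PDK1 and BNIP3 lower) among 682.

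HK3 stood at 4649, 5709 and 4099 normalized counts with shRNA 1 and 5335, 9014 and 32166 with shRNA 2, against 1576 and 1481 in shRNA control. Its knockdown mean was 10162 ± 10916 (SD, n = 6), against 1528 ± 67.7 (SD, n = 2), a log2 change of 2.28 ± 0.63 (SE, limma adjusted p = 0.107). The groups did not overlap, and the highest knockdown library by far was shRNA 2 replicate 3. HK3 was called without that library, without shRNA 1 replicate 3 and without all 3 libraries far from the median, among other settings. SLC2A3, a high-affinity glucose transporter, stood at 2002, 1713 and 2812 with shRNA 1 and 2509.9, 1903 and 3581 with shRNA 2, against 807 and 1874 in shRNA control. Its shRNA control libraries lay more than 2-fold apart and overlapped the knockdown libraries (log2 change 0.93 ± 0.38 SE, limma adjusted p = 0.297). All 22 enzymes and transporters together gave a list median of -0.16, against -0.03 over all genes, with 9 of 22 changes positive and 13 negative.

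PDK1 stood at 11298, 12538 and 12661 normalized counts with shRNA 1 and 13989, 13353 and 13213 with shRNA 2, against 20904 and 25791 in shRNA control. Its knockdown values were the tightest of the regulators, 12842 ± 919 (SD, n = 6), against 23347 ± 3456 (SD, n = 2), and the other 11 libraries lay between 17944 and 25609. The log2 change was -0.86 ± 0.32 (SE, limma adjusted p = 0.248). PFKFB3, the sister enzyme of PFKFB4 that favours synthesis of the phosphofructokinase activator, ranged from 2948 to 7080.1 in the knockdown (median 5628), against 3658 and 2118 in shRNA control, with a log2 change of 0.92 ± 0.39 (SE, limma adjusted p = 0.306). All knockdown libraries but shRNA 1 replicate 3 were above both controls. PFKFB4 had a median of 931 in the knockdown, against 753 and 3954 in shRNA control, whose libraries lay so far apart that they enclosed all 6 knockdown libraries but 1.

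HIF1A stood at 3127, 3925 and 5123 normalized counts with shRNA 1 and 3359, 3718 and 3542 with shRNA 2, against 1987 and 2333 in shRNA control, a log2 change of 0.80 ± 0.30 (SE, limma adjusted p = 0.241). The hypoxia genes as a list did not share its direction: 7 of 9 tested, HIF1A among the 9, had negative changes and 2 had positive ones, with a median of -0.55. The shRNA control libraries themselves differed in these genes, 8 of 9 being higher in replicate 3. BNIP3 was nearly constant in the knockdown, at 472, 467 and 456 with shRNA 1 and 470.1, 520.0 and 481 with shRNA 2, against 648 and 1436 in shRNA control (log2 change -1.01 ± 0.32 SE, limma adjusted p = 0.154). An ATF7 KO clone 2 library was as low (479), so the low level was not limited to the knockdown. VEGFA, the angiogenic growth factor, stood at 6384, 3935 and 2557 with shRNA 1 and 4905, 5299 and 8573 with shRNA 2, against 10699 and 10424 in shRNA control (log2 change -1.10 ± 0.42 SE, limma adjusted p = 0.254). The shRNA control libraries were the highest of all 19, and the knockout control, at 7258 and 4442, lay within the knockdown range. ANKRD37, an ankyrin repeat protein gene known to be induced by hypoxia, stood at 54.1, 71.8 and 17.2 with shRNA 1 and 39.8, 68.5 and 60.3 with shRNA 2, against 71.7 and 152 in shRNA control (log2 change -1.12 ± 0.56 SE, limma adjusted p = 0.406), and the groups overlapped by 1 library. EGLN1, the main oxygen-sensing hydroxylase, was at 167 to 524 in the knockdown, against 570.2 and 592 in shRNA control, with no overlap (log2 change -0.67 ± 0.40 SE, limma adjusted p = 0.502).

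In all, 2 of 34 members (5.88 percent) were higher without overlap in the knockdown than in shRNA control, namely HK3 and HIF1A, against 11.1 percent of all genes. A further 4 (11.8 percent) were lower without overlap, namely PDK1, VEGFA, BNIP3 and EGLN1, against 11.2 percent of all genes. Both shares are near or below the background. Against all 13 other libraries, HK3 and HIF1A were higher (5.88 percent, against 3.69 percent of all genes) and PDK1 lower (2.94 percent, against 2.29 percent). Without the 3 libraries far from the median, limma called 6 members (HK3, PFKFB3 and HIF1A higher, and PDK1, VEGFA and BNIP3 lower) among 1251 genes, and 7 members were higher and 6 lower without overlap, against 17.5 and 17 percent of all genes. With the wild type and knockout control libraries added to the control, limma called 5 members (SLC2A3, HK3 and HIF1A higher, and PDK1 and BNIP3 lower) among 1561 genes. In these bulk samples fewer cells of a type and less message per cell cannot be told apart, and the part of the higher monocytic and endothelial marker sums in these differences was not tested.

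**Figure D2:**
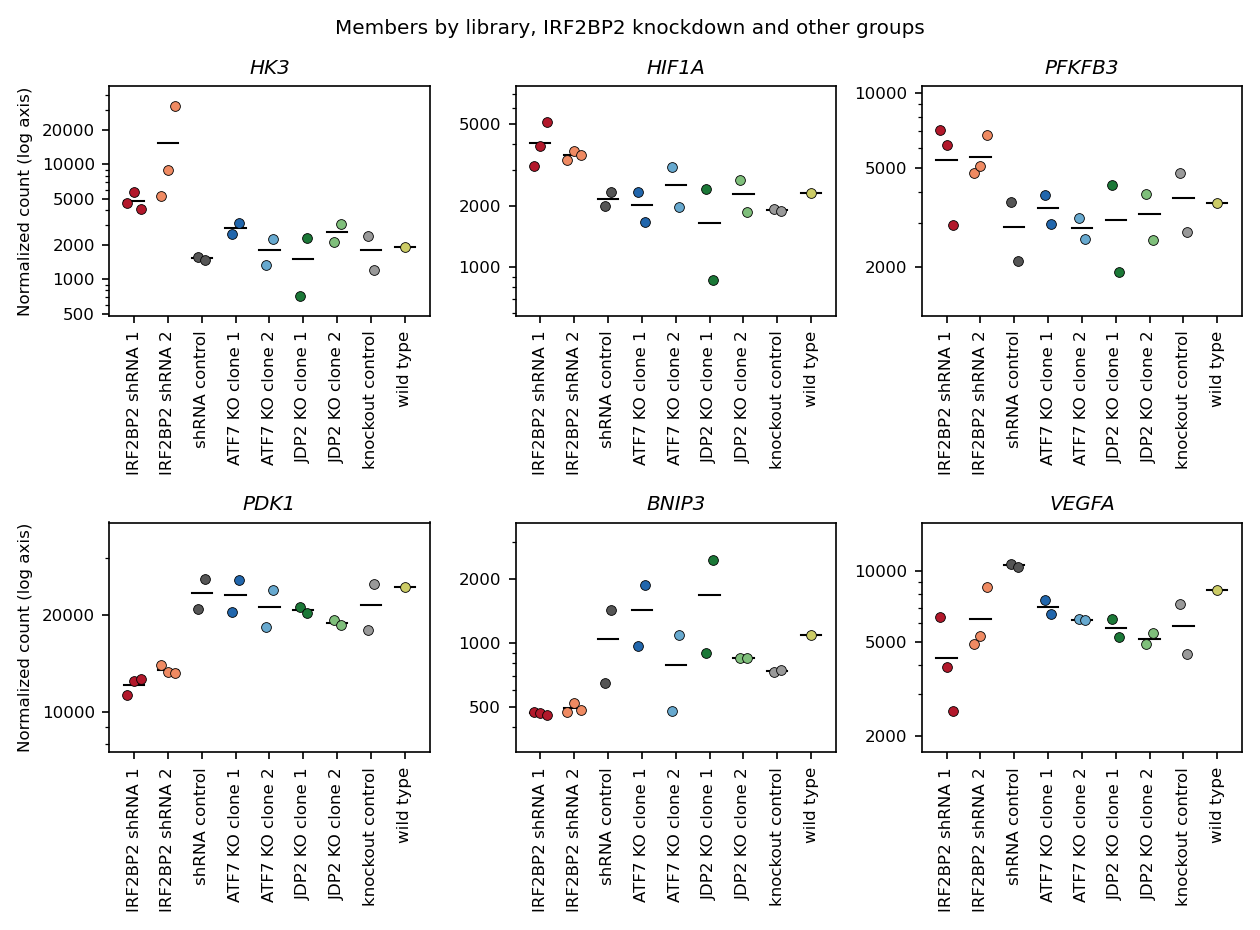
Normalized counts on a log axis of HK3, HIF1A, PFKFB3, PDK1, BNIP3 and VEGFA in each library, with a line at the group mean. All 6 knockdown libraries lie above every other library for HK3. For PDK1 all 6 lie below 17944, the lowest of the other libraries, whereas for BNIP3 an ATF7 KO clone 2 library reaches the knockdown level.

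The hairpins were compared with each other over 3 libraries each. Limma called 0 of 34 members and 0 percent of all 12738 genes, with 2 members at an unadjusted p under 0.05, against 7.2 percent of all genes (917 genes), and edgeR and DESeq2 also called 0 members (0 and 25 genes). HK3 had the largest positive change for shRNA 2 over shRNA 1, 1.28 ± 0.53 (SE, limma adjusted p = 0.589), which rests on shRNA 2 replicate 3 and was 0.54 without it. NDRG1 stood at 14331, 17584 and 33492 with shRNA 2, against 11918, 12325 and 6936 with shRNA 1 (log2 change 1.02 ± 0.44 SE, limma adjusted p = 0.589). Each shRNA 2 library was above each shRNA 1 library. PFKM (-0.65 ± 0.35 SE, limma adjusted p = 0.589) and LDHB (-0.35 ± 0.43 SE, limma adjusted p = 0.707) had the largest negative changes, and that of LDHB turned positive (0.22) without shRNA 2 replicate 3. LDHB stood at 294 in that library, against 704, 861 and 926 with shRNA 1.

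The knockouts were compared with the knockout control, whose 2 libraries serve both ATF7 and JDP2, so the pair of comparisons is not independent. In both, the aldolase ALDOC, the isomerases GPI and TPI1, GAPDH and ENO1 were lower in every library than in the control, whereas ALDOA was higher in every library. No member passed the test in either.

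In ATF7 knockout, limma called 0 of 34 members, against 0.25 percent of all 13208 genes (33 genes), with 4 members at an unadjusted p under 0.05, against 7.09 percent of all genes (936 genes). EdgeR and DESeq2 called 0 members as well, among 33 and 223 genes. ALDOC, the brain-type aldolase, stood at 25.9 and 84.6 in clone 1 and 96.0 and 328 in clone 2, against 652 and 691 in the knockout control, a log2 change of -2.86 ± 0.90 (SE, limma adjusted p = 0.348). The 2 shRNA control libraries (456 and 1617) and wild type (765) were above all 4 as well. GAPDH stood at 77166 and 97368 in clone 1 and 24339.6 and 43348 in clone 2, against 115355 and 123957 in the knockout control (log2 change -1.17 ± 0.49 SE, limma adjusted p = 0.62). Here the knockout control was high: shRNA control stood at 76415 and 51805 and wild type at 73956, within the range of the ATF7 libraries. ENO1 was at 83800.4, 107164, 37908 and 58604 over both clones, against 148691 and 113649 in the knockout control (-0.96 ± 0.40 SE, limma adjusted p = 0.63), and again shRNA control and wild type (84052, 84029 and 76876) lay within the knockout range. The largest positive changes were those of the lactate exporter SLC16A3 at 0.68 ± 0.36 (SE, limma adjusted p = 0.736) and of ALDOA at 0.67 ± 0.33 (SE, limma adjusted p = 0.715). ALDOA stood at 1152 and 1347 in clone 1 and 1099 and 1408 in clone 2, against 998 and 614 in the knockout control. All 9 tested hypoxia genes had positive changes, against 7004 of all 13208 genes, and 0 of them had an unadjusted p under 0.05. Their median was 0.22, against 0.04 over all genes. In these genes the knockout control libraries had median deviations of -0.16 and -0.30 from the medians over 19 libraries. Wild type was at 0.41 and shRNA control at -0.24 and 0.74. Against all 5 controls, in the authors' deposited table, VEGFA, BNIP3L, P4HA1 and KDM3A had negative changes and the others positive ones.

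Without overlap, 1 of 35 members (ALDOA) was higher in ATF7 knockout than in the knockout control, against 7.63 percent of all genes, and 5 (14.3 percent: GPI, ALDOC, TPI1, GAPDH and ENO1) were lower, against 10.4 percent. The 35 include CA9, which entered through ATF7 KO clone 2 replicate 1 (39 reads) and overlapped. Against all 5 control libraries the lower members were GPI and ALDOC (5.88 percent of 34), against 2.53 percent of all genes, and none was higher, against 2.19 percent.

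In JDP2 knockout, limma called 0 of 34 members, against 0.674 percent of all 13208 genes (89 genes), with 9 members at an unadjusted p under 0.05, against 16.8 percent of all genes (2217 genes). EdgeR called 0 members among 122 genes, and DESeq2 called 3 (ALDOA and SLC16A3 higher, ENO2 lower) among 526. ENO2, the neuron-type enolase and a known hypoxia target, stood at 154 and 203 in clone 1 and 140.1 and 122 in clone 2, against 381 and 365 in the knockout control (log2 change -1.29 ± 0.35 SE, limma adjusted p = 0.144). All 4 were below each of the 5 control libraries. ALDOC stood at 155 and 332 in clone 1 and 63.4 and 37.0 in clone 2, against 652 and 691 in the knockout control (-2.66 ± 0.90 SE, limma adjusted p = 0.216). ALDOA stood at 1339 and 2879 in clone 1 and 1507 and 1472 in clone 2, against 998 and 614 in the knockout control (1.13 ± 0.33 SE, limma adjusted p = 0.177). SLC16A3 stood at 34945 and 76592 in clone 1 and 40821 and 41153 in clone 2, against 27237 and 15697 in the knockout control (1.16 ± 0.36 SE, limma adjusted p = 0.199). For both genes the library far above the rest was JDP2 KO clone 1 replicate 2, and the other 3 were also above all 5 controls. GAPDH was at 63756, 34264, 64223 and 42843 over both clones, against 115355 and 123957 in the knockout control (-1.27 ± 0.49 SE, limma adjusted p = 0.243), and overlapped shRNA control. SLC2A3 was at 714, 871, 649.5 and 384, against 1289 and 1060.5 in the knockout control (-0.90 ± 0.35 SE, limma adjusted p = 0.249).

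Without overlap, 3 of 34 members (8.82 percent: ALDOA, SLC16A3 and BNIP3) were higher in JDP2 knockout than in the knockout control, against 13.5 percent of all genes. A further 8 (23.5 percent: SLC2A3, GPI, ALDOC, TPI1, GAPDH, ENO1, ENO2 and PFKFB4) were lower, against 14.3 percent. Both counts were the same without the 3 libraries far from the median, where the background was 16.5 percent higher and 17.3 percent lower. Against all 5 controls ALDOA and SLC16A3 were higher (5.88 percent, against 7.58 percent of all genes) and GPI, ALDOC, TPI1 and ENO2 were lower (11.8 percent, against 6.4 percent). With all 5 controls as the control, limma called 6 members (ALDOA and SLC16A3 higher, and SLC2A3, GPI, ALDOC and ENO2 lower) among 919 genes. Against all 11 other libraries of the series, 0 members were higher and 0 lower in all 8 knockout libraries, against 0.714 and 0.622 percent of all genes. Scaling to equal totals gave an all-gene median of -0.22 on the log2 scale in this comparison, against 0.00 as deposited, and the directions of these members held.

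**Figure D3:**
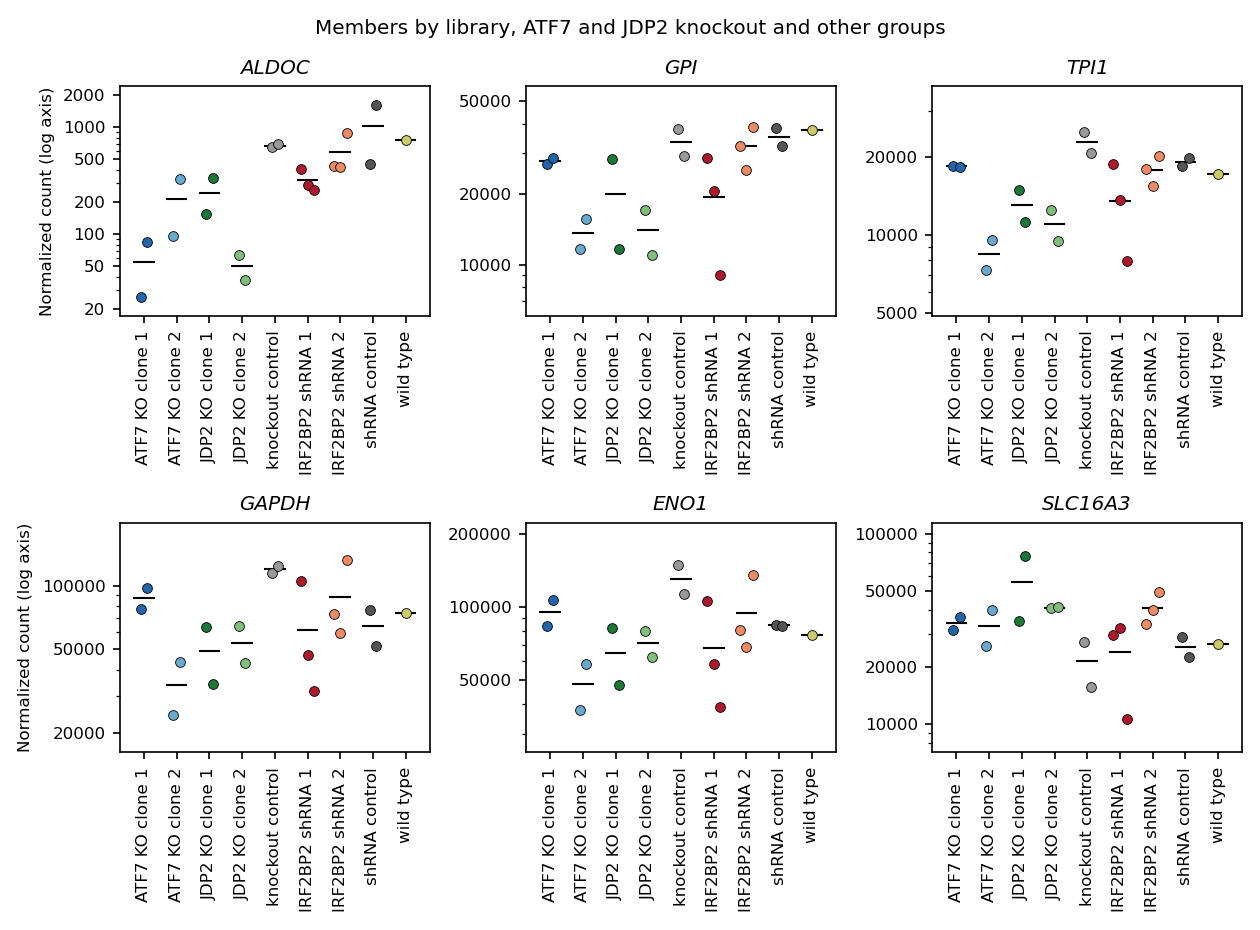
Normalized counts on a log axis of ALDOC, GPI, TPI1, GAPDH, ENO1 and SLC16A3 in each library, with a line at the group mean. For ALDOC the 8 knockout libraries lie at 332 or below and the 5 control libraries at 456 or above. The knockdown libraries overlap the knockouts for ALDOC, and all but shRNA 2 replicate 3 (888) lie at 436 or below. For GAPDH and ENO1 the 2 knockout control libraries are above the shRNA control and wild type libraries as well as above the knockouts.

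JDP2 knockout was also set against ATF7 knockout, where limma called 0 of 34 members and 0 percent of all 13208 genes, with 2 members at an unadjusted p under 0.05, against 2.19 percent of all genes (289 genes). EdgeR and DESeq2 called 0 members, among 0 and 9 genes. ENO2 (-0.78 ± 0.29 SE, limma adjusted p = 0.999) and PFKFB4 (-0.75 ± 0.66 SE, limma adjusted p = 0.999) had the largest negative changes, and SLC16A3 (0.48 ± 0.29) and ALDOA (0.46 ± 0.27) the largest positive ones. The change of PFKFB4 was -0.07 without ATF7 KO clone 1 replicate 2 and -1.45 without ATF7 KO clone 2 replicate 1.

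ATF7 KO clone 2 was also set against clone 1. PFKFB4 stood at 228 and 621 in clone 2, against 1612 and 4072 in clone 1, a log2 change of -2.76 ± 0.53 (SE, limma adjusted p = 0.0738). It passed the threshold with DESeq2 (adjusted p = 0.000131), without ATF7 KO clone 2 replicate 2 (0.0467) and without JDP2 KO clone 1 replicate 1 or 2, which contribute only to the spread (0.0163 and 0.0149). GAPDH stood at 24339.6 and 43348 in clone 2, against 77166 and 97368 in clone 1 (-1.42 ± 0.42 SE, limma adjusted p = 0.335), and TPI1 at 7301 and 9592, against 18443 and 18369 (-1.14 ± 0.32 SE, limma adjusted p = 0.292). Neither gene overlapped between the clones. For both genes clone 2 lay below all 5 control libraries, and clone 1 lay below the knockout control but not below all of the shRNA control and wild type libraries. ALDOC (1.90 ± 0.68 SE, limma adjusted p = 0.513) and LDHB (0.52 ± 0.50 SE, limma adjusted p = 0.994) had the largest positive changes. Limma called 0 of 34 members, against 0.303 percent of all genes (40 genes), with 9 members at an unadjusted p under 0.05, against 6.62 percent of all genes (874 genes). EdgeR called 0 members and DESeq2 called 2 (PFKFB4 and TPI1 lower), among 26 and 219 genes.

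Between JDP2 clones limma called 0 of 34 members, against 0.136 percent of all genes (18 genes), with 2 members at an unadjusted p under 0.05, against 2.48 percent of all genes (328 genes), and edgeR and DESeq2 called 0 members among 18 and 53 genes. ALDOC stood at 63.4 and 37.0 in clone 2, against 155 and 332 in clone 1 (-2.20 ± 0.68 SE, limma adjusted p = 0.993), the opposite order to the ATF7 clones. ANKRD37 was at 60.2 and 26.9 in clone 2, against 64.3 and 157 in clone 1 (-1.30 ± 0.66 SE, limma adjusted p = 0.993). HK3 (0.97 ± 0.55) and HIF1A (0.63 ± 0.47) had the largest positive changes, and that of HIF1A turned to -0.11 without JDP2 KO clone 1 replicate 2, which held 871 normalized counts. The change of HK3 was 0.13 without JDP2 KO clone 1 replicate 1 and 1.81 without replicate 2 of that clone.

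The knockdown effect was set against the mean of both knockout effects in a single fit. Limma called 0 of 34 members, against 1.41 percent of all 13057 genes (184 genes), with 8 members at an unadjusted p under 0.05, against 17.1 percent of all genes (2236 genes). EdgeR called 0 members among 210 genes and DESeq2 called 1 among 727 (PDK1, -0.83, adjusted p = 0.0404). HK3 (2.05 ± 0.85 SE, limma adjusted p = 0.223) and ALDOC (1.71 ± 1.06 SE, limma adjusted p = 0.418) had the largest positive differences and BNIP3 (-1.53 ± 0.60 SE, limma adjusted p = 0.194) and VEGFA (-1.18 ± 0.47 SE, limma adjusted p = 0.205) the largest negative ones. The difference for ALDOC was 0.80 without shRNA control replicate 1 and 2.62 without replicate 3. SLC2A3, whose knockdown change was positive and whose JDP2 knockout change was negative, differed by 1.47 ± 0.51 (SE, limma adjusted p = 0.144).

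**Figure D4:**
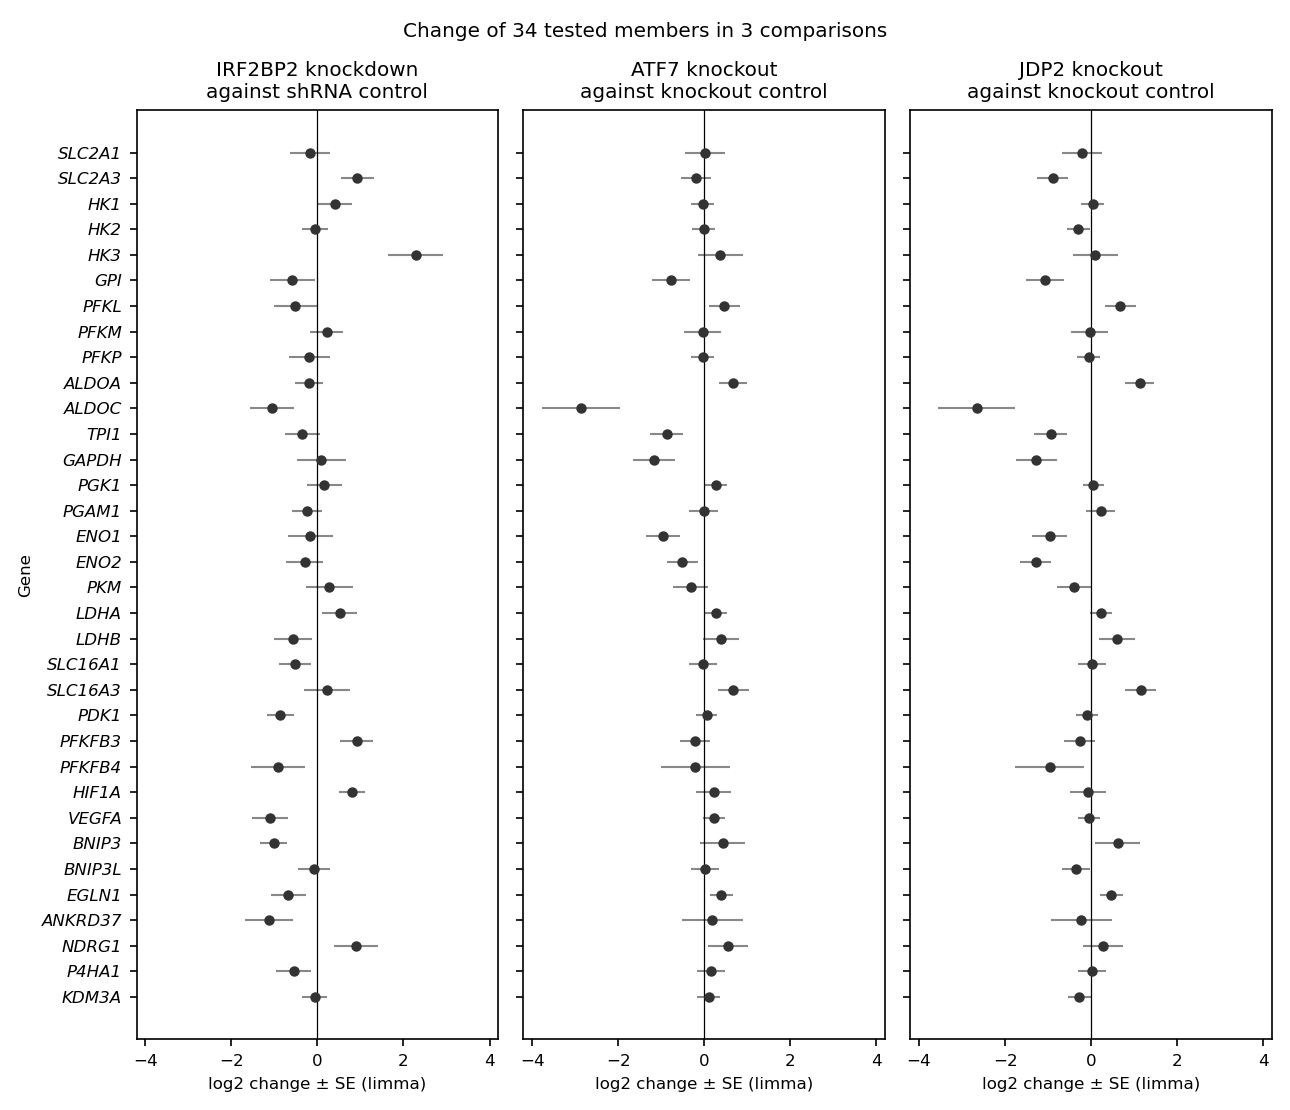
Log2 change with its standard error (limma) of the 34 tested members in IRF2BP2 knockdown over shRNA control and in each knockout over the knockout control. HK3 at 2.28 in the knockdown and ALDOC at -2.86 and -2.66 in the knockouts are the farthest from 0, and no member passed the adjusted threshold.

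Libraries of the same group also differed in hypoxia genes. In shRNA control, replicate 3 was higher than replicate 1 in 8 of 9 tested hypoxia genes, with a median difference of 0.96 on the log2 scale. PFKFB4 stood at 3954 in replicate 3 and 753 in replicate 1, ALDOC at 1617 and 456, and P4HA1, a subunit of collagen prolyl hydroxylase, at 2672 and 993. In all, 8 of 34 members (23.5 percent) were more than 2-fold higher in replicate 3, against 3.99 percent of all genes, and 0 were more than 2-fold lower, against 2.54 percent. These 8 were PFKFB4, ALDOC, ENO2, P4HA1, SLC2A3, BNIP3L, BNIP3 and ANKRD37. They are known to respond to hypoxia, as many members are by choice of the list. VEGFA, of the same hypoxia list, and ENO1 differed little between the 2 replicates. GAPDH and PFKFB3 went the other way (51805 and 2118 in replicate 3, against 76415 and 3658 in replicate 1). Because these are 2 libraries, the difference has no test.

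The knockout control pair showed no such spread, with 0 of 34 members more than 2-fold higher or lower in replicate 2, against 7.3 and 3.2 percent of all genes, and a median of -0.03 over the hypoxia genes. In ATF7 KO clone 1, replicate 2 was above replicate 1 in 6 of 9 hypoxia genes (median 0.62), with BNIP3 at 1882 and 971, although 2 of 34 members (5.88 percent) were more than 2-fold higher, against 7.41 percent of all genes, and 0 lower, against 1.53 percent. In ATF7 KO clone 2, 5 of 35 members (14.3 percent) were more than 2-fold higher in replicate 2, against 4.76 percent of all genes, and 2 lower (5.71 percent), against 26.3 percent. Of these lower members 1 was CA9, which is close to background and entered only through replicate 1 (39 reads, against 2 in replicate 2). In JDP2 KO clone 1, 8 of 34 (23.5 percent) were higher in replicate 2, against 29.7 percent of all genes, and 5 lower (14.7 percent), against 14.9 percent. In JDP2 KO clone 2, 0 were higher, against 4.12 percent, and 1 lower (2.94 percent), against 2.26 percent. Across all 19 libraries the hypoxia genes lay highest above their own medians in shRNA control replicate 3 (median 0.74, with 7 of 9 above). Next came ATF7 KO clone 1 replicate 2 (0.44) and wild type replicate 2 (0.41). The knockdown libraries were at -0.52 to 0.00, and IRF2BP2 shRNA 1 replicate 3 (-0.52) was the lowest of all 19. Oxygen and cell density at harvest are not in the labels, and their part in these differences was not tested.

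**Figure D5:**
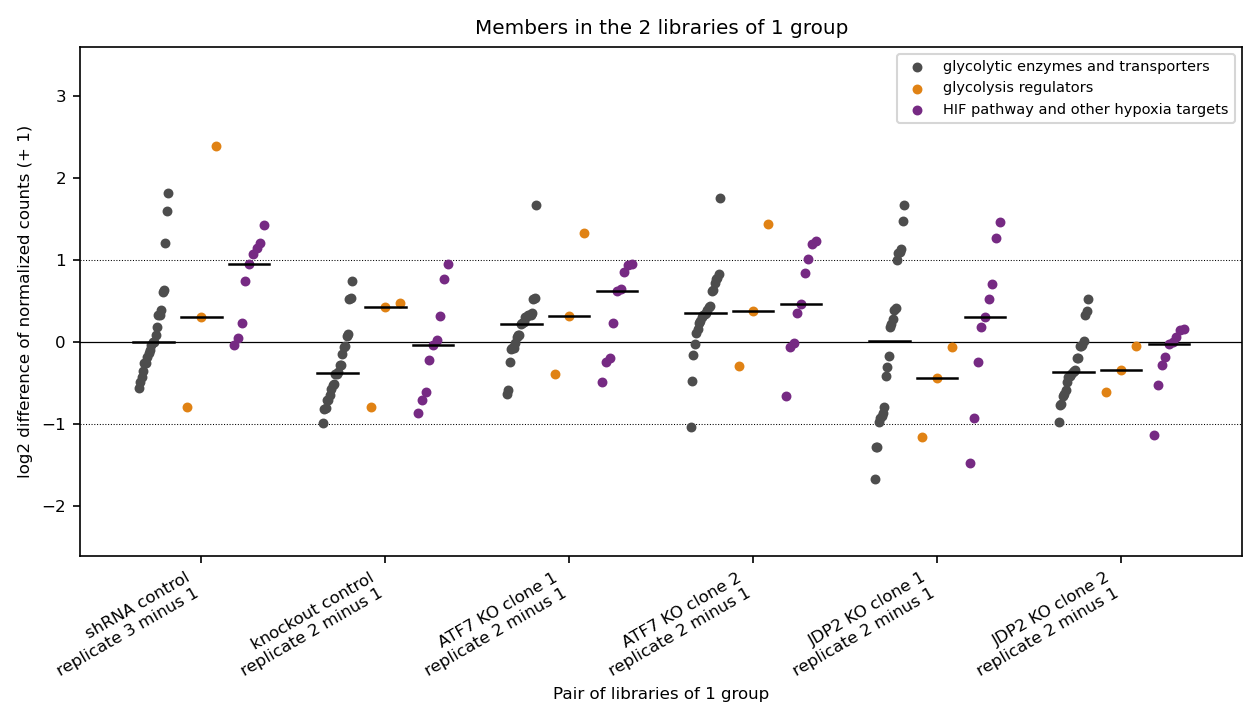
Log2 difference of the tested members between 2 libraries of the same group, for the controls and the knockout clones, by role, with a line at each median. Hypoxia genes in shRNA control have a median of 0.96 and PFKFB4 reaches 2.39, whereas the knockout control pair stays within 1 of 0.

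Genes of neighbouring pathways were counted in the same fits. In the knockdown 1 of 23 tested other glycolysis and pyruvate genes was higher, namely TIGAR, a phosphatase that lowers the activator of phosphofructokinase and a p53 target. It stood at 143, 194 and 302 with shRNA 1 and 118, 127 and 199 with shRNA 2, against 55.7 and 38.4 in shRNA control (1.86 ± 0.41 SE, limma adjusted p = 0.0388). The call held in 10 of 21 alternatives and was lost with edgeR (adjusted p = 0.0888) and without either control library (adjusted p = 0.301 and 0.410), the log2 change staying between 1.60 and 2.13. Among 24 other hypoxia target genes 1 was higher, HMOX1, the inducible heme oxygenase. It stood at 2402, 2825 and 1327 with shRNA 1 and 984, 1722 and 4537 with shRNA 2, against 318 and 153 in shRNA control (3.19 ± 0.51 SE, limma adjusted p = 0.00789), and the call was lost when either control library was left out (adjusted p = 0.0674 and 0.144). Of 8 pentose phosphate genes, 11 gluconeogenesis and glycogen genes and 12 genes of the HIF machinery, 0 were called. Their most abundant members per kb were not called either, for example transketolase TKT (-0.07 ± 0.55), the glycogen phosphorylase PYGB (0.27 ± 0.50) and ELOB (-0.56 ± 0.48), a subunit of the VHL ubiquitin ligase.

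In both knockouts 0 of these genes were called, among 25 other glycolysis and pyruvate, 8 pentose phosphate, 11 gluconeogenesis and glycogen, 13 HIF machinery and 23 other hypoxia target genes tested. BSG, the chaperone of the lactate transporters and the most abundant of the other glycolysis genes (median 14429 per kb), differed by 0.87 ± 0.39 in ATF7 knockout and 0.91 ± 0.39 in JDP2 knockout on the log2 scale. In ATF7 knockout MPC2, of the mitochondrial pyruvate carrier, differed by 0.64 ± 0.42, TKT by -0.60 ± 0.42 and CITED2, a HIF target that restrains HIF, by 0.60 ± 0.36. In JDP2 knockout the differences were 0.92 ± 0.42 for MPC2, -0.45 ± 0.42 for TKT and 0.82 ± 0.36 for CITED2, all on the log2 scale with their SE. Set against the knockout effect, the knockdown effect was higher for HMOX1 (3.28 ± 0.65 SE, limma adjusted p = 0.0214) and for PGD (1.81 ± 0.38 SE, limma adjusted p = 0.0261), a dehydrogenase of the oxidative pentose phosphate branch, and lower for SLC2A5 (-1.70 ± 0.42 SE, limma adjusted p = 0.0461), a fructose transporter. PGD ranged from 7390.4 to 11450.2 in the knockdown, against 4595 and 5024 in shRNA control, and from 3006 to 5433 in the knockouts, against 6673 and 10432 in the knockout control. Each of these 3 calls was lost when any 1 of the 4 shRNA control and knockout control libraries was left out. The calls of HMOX1 and PGD held in the other 26 of 30 alternatives, whereas that of SLC2A5 held in 17 of 30 and was also lost with no filter on low values and without any 1 of 8 other libraries.

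The authors' deposited table for the knockdown, in which the controls were all 5 control libraries, called 6 of 34 members with an adjusted p (17.6 percent), against 17.5 percent of all genes. HK3 changed by 2.13 ± 0.36 (SE, adjusted p = 1.96e-07), PDK1 by -0.81 ± 0.13 (SE, adjusted p = 7.45e-08), HIF1A by 0.81 ± 0.23 (SE, adjusted p = 0.00379), SLC2A3 by 0.86 ± 0.25 (SE, adjusted p = 0.00528), BNIP3 by -0.86 ± 0.29 (SE, adjusted p = 0.0222) and PFKFB3 by 0.64 ± 0.24 (SE, adjusted p = 0.0465) in the authors' deposited table. The authors' deposited table for JDP2 knockout also called 6 members (17.6 percent), against 12.1 percent of all genes, with ENO2 at -1.33 ± 0.30 (SE, adjusted p = 0.000925), ALDOC at -1.85 ± 0.41 (SE, adjusted p = 0.000959), ALDOA at 0.86 ± 0.25 (SE, adjusted p = 0.0117) and SLC16A3 at 0.90 ± 0.29 (SE, adjusted p = 0.0244). SLC2A3 and GPI were the others, both lower. For ATF7 knockout the authors' deposited table called 1 member, ALDOC, at -1.93 ± 0.41 (SE, adjusted p = 0.00436), against 0.315 percent of all genes. These tables share their control libraries with each other.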

How the data were processed

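The deposited table holds normalized counts of 20423 genes in 19 libraries. Per the submitters' processing notes, reads were mapped to hg38, counted with featureCounts and normalized with DESeq2. The sources used here name no aligner, annotation or strand setting, so reads of overlapping and antisense genes cannot be told apart. The deposited values are a signal, counts divided by size factors. Whole reads were recovered for 100 percent of values within 0.01. The authors' comparison tables hold, per the file headers, a log2 fold change, a Wald score and p-values, and the deposited score has the opposite sign to the fold change.

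Tests used limma 3.58.1 with a trended prior on log2(normalized count + 1), for genes with a mean of at least 10 in the libraries of the fit. This scale understates changes of low genes. P-values were Benjamini-Hochberg adjusted over all genes tested, with calls at 0.05, in 8 comparisons. A fit of each arm used all its groups. EdgeR 4.0.16 and DESeq2 1.42.0 on the recovered reads, other scalings, filters and pseudocounts, a replicate block and leaving out each library were alternatives, run in R 4.3.3. Levels per kb used the merged length of all exons of a gene in the GRCh38 annotation. That length can exceed the transcript in use, so ranks between genes and isoenzyme shares depend on it. The test script was checked on simulated data. Python 3.11.15 and matplotlib 3.10.9 drew the figures.

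The members and lists were chosen with earlier results of these data known. Named members were those called, or otherwise the 2 largest changes each way, plus the highest and lowest of each list by level. Of the other lists, called genes or the 2 highest were named. Members whose libraries did not overlap, and other members shown by library, were chosen after their values were seen.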

Additional observations from a re-analysis of the deposited data

Results flagged for a closer look

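In 8 of 102 groups of 4 or more libraries, 1 library lay far from the others by Dixon's criterion, which chance meets in about 1 in 20 groups. JDP2 KO clone 1 replicate 2 was the highest JDP2 knockout library for HK1 (9937 normalized counts, next 7871), ALDOA (2879, next 1507), SLC16A3 (76592, next 41153) and BNIP3 (2482, next 899). IRF2BP2 shRNA 2 replicate 3 was the highest knockdown library for HK3 (32166, next 9014), ALDOC (888, next 436) and PFKFB4 (2246, next 1041). IRF2BP2 shRNA 1 replicate 3 was the lowest knockdown library for PFKL, the liver-type phosphofructokinase (7448, next 22462). These are the 3 libraries in which many genes lay far from the median.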

How the results depend on the processing

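By limma on the deposited scale 0 of 34 members were called in each of the 8 comparisons. For IRF2BP2 knockdown over shRNA control the count was 1 with equal totals and 1 with quantile normalization (HK3 in both; 2.94 percent, against 1.79 and 1.75 percent of all genes), 3 with DESeq2 (8.82 against 5.35 percent), 7 with array weights (HK3, PFKFB3, HIF1A and NDRG1 higher, PDK1, VEGFA and BNIP3 lower; 20.6 against 11.9 percent), 6 without the 3 far libraries (17.6 against 10.1 percent) and 5 with all 5 controls pooled (14.7 against 12.3 percent). It ranged from 0 to 3 when 1 library was left out, with 3 (HK3, PFKFB3 and PDK1; 8.82 against 4.92 percent) without IRF2BP2 shRNA 1 replicate 3 and 1 (HK3) without IRF2BP2 shRNA 2 replicate 3. For JDP2 knockout it was 3 with DESeq2 (8.82 against 3.98 percent) and 6 with pooled controls (17.6 against 7.08 percent), and for the hairpins 8 with array weights (23.5 against 31.1 percent). For ATF7 KO clone 2 over clone 1 it was 2 with DESeq2 (5.88 against 1.66 percent), 1 with array weights and 1 without the 3 far libraries (2.94 against 1.08 and 1.52 percent), and 0 to 1 when 1 library was left out. For the knockdown effect minus the mean knockout effect it was 1 with DESeq2 and 1 without the 3 far libraries (VEGFA; 2.94 against 5.57 and 4.84 percent). The cause of these differences was not tested.

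Same-numbered libraries had a correlation over 0.1 in 3 of 7 pairs of the shRNA arm and in 5 of 10 pairs of groups of the knockout arm, where groups of 2 give 1 distinct value a pair. As not every pair was over 0.1, the numbers were not taken to pair the samples. The replicate block gave 1 member for the ATF7 clones (PFKFB4; 2.94 against 0.704 percent) and 1 for the knockdown effect minus the mean knockout effect (SLC2A3; 2.94 against 5.1 percent), and 0 members in the other 6 comparisons.

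Of the values for named genes under the alternatives, 1173 kept direction and side of the threshold, 48 passed the threshold only there, 34 lost it, all of them TIGAR, HMOX1, SLC2A5 and PGD, and 4 reversed. LDHB between the hairpins was 0.30 without the 3 far libraries, and -0.74 to 0.22 when 1 library was left out, against -0.35. HIF1A between the JDP2 clones was -0.11 without the 3 far libraries, and -0.11 to 1.36 when 1 library was left out, against 0.63. These 2 rest on IRF2BP2 shRNA 2 replicate 3 and JDP2 KO clone 1 replicate 2.

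Over all genes, the count of calls with 1 library left out ranged from 11 to 609 in the knockdown, 0 to 98 in ATF7 knockout, 0 to 125 in JDP2 knockout, 0 to 1 for the hairpins, 17 to 198 for the ATF7 clones, 12 to 266 for the JDP2 clones and 0 to 294 for the difference of effects. In the knockdown 228 genes were called, 86 percent of them higher, against 124 with edgeR (71.8 percent higher), 682 with DESeq2, 1514 with array weights (62.9), 1251 without the far libraries (62.7) and 1561 with pooled controls (61.2). In ATF7 knockout it was 33 genes, against 19 with no filter, 223 with DESeq2, 74 with the replicate block, 98 without the far libraries and 3 with pooled controls. In JDP2 knockout it was 89 genes, 2.25 percent of them higher, against 53 with no filter, 526 with DESeq2 (28.7 percent higher), 185 with array weights, 161 with the replicate block and 919 with pooled controls (54.5). For JDP2 knockout over ATF7 knockout it was 0 genes, against 9 with DESeq2 and 4 with array weights, and for the hairpins 0, against 25 with DESeq2, 3962 with array weights and 1 without the far libraries. For the ATF7 clones it was 40, against 22 with no filter, 26 with equal totals, 26 with edgeR, 219 with DESeq2, 143 with array weights, 93 with the replicate block and 198 without the far libraries. For the JDP2 clones it was 18, against 53 with DESeq2. For the difference of effects it was 184, against 79 with no filter, 727 with DESeq2, 562 with array weights, 666 with the replicate block and 616 without the far libraries. Equal totals gave all-gene medians of -0.31 between the hairpins, -0.17 for JDP2 over ATF7 knockout, 0.14 and 0.21 between the ATF7 and the JDP2 clones and 0.20 for the difference of effects. With 2 libraries in each control group, each control library carries much of every comparison.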
